A study of Mus musculus with 9 samples.

Results

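The genes described here are 7 early lymphoid and pre-B genes, Vpreb1, Vpreb3, Igll1, Dntt, Rag1, Rag2 and Ebf1, out of 18193 genes named on the array. Their members are all probe sets (groups of short array probes read out as 1 value) that the platform annotation gives to 1 of these symbols alone, and there are 14 of them among 45037 probe sets. They comprise 1 probe set each for Vpreb1, Vpreb3, Rag1 and Rag2, 2 for Igll1, 3 for Dntt and 5 for Ebf1. The choice used the annotation and no measured value.

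The arrays measured RNA of natural killer (NK) cells, innate lymphocytes that kill infected and tumour cells, sorted from mice by flow cytometry. There were 3 groups of 3 arrays: NK cells from the bone marrow of NKDxIL15tg mice, NK cells from the spleen of NKDxIL15tg mice, and NK cells from the spleen of IL15tg mice. The study describes NKDxIL15tg cells as immature and IL15tg cells as mature. All 3 groups carry the IL15tg allele, an interleukin 15 transgene; interleukin 15 is the cytokine on which NK cells depend. What the NKD allele is, the promoters that drive the transgenes, the ages of the mice and the number of animals behind an array are not given in the sources used here. Every immature array also carries NKD, so maturity and genotype cannot be told apart, and bone marrow was taken from NKDxIL15tg mice alone. The titles call the arrays of a group biological replicates. Because a sorted population was measured as a whole, fewer cells of a type and less RNA per cell cannot be told apart.

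Early lymphoid progenitors rearrange their antigen receptor genes with the RAG1 and RAG2 recombinase, and the enzyme TdT, encoded by Dntt, adds bases at the joints. In pre-B cells a surrogate light chain made from the products of Vpreb1 and Igll1 pairs with the first rearranged heavy chain, before a true light chain exists. EBF1 is a transcription factor that commits progenitors to the B lineage, and Igll1 and Vpreb1 are among its known targets. NK cells do not need rearranged receptors, yet part of them descend from progenitors that once expressed the RAG recombinase.

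Bone marrow NK cells of NKDxIL15tg mice were not called different from their spleen counterparts at any of the 14 probe sets. In that comparison only 2 of all 45037 probe sets were called (0.00444%). Compared with IL15tg spleen, 12.4% of all probe sets were called in bone marrow and 7.74% in NKDxIL15tg spleen. Against mature IL15tg spleen cells, 2 of the 5 Ebf1 probe sets were called lower in both immature groups. The first, 1416301_a_at, read 14.8 ± 4.17 in NKDxIL15tg bone marrow and 17.9 ± 2.21 in NKDxIL15tg spleen, against 59.1 ± 19.9 in IL15tg spleen (mean intensity ± SD, n = 3 each). Its calls held in 9 of 9 fits that left out 1 array, and were lost when values below 64 were set to 64. The second lost both calls without bone marrow replicate 3, and also when values below 64 were set to 64. The other Ebf1 probe sets were not called. Vpreb3 was higher in NKDxIL15tg bone marrow than in IL15tg spleen, at 193.7 ± 50.8 against 114.6 ± 11.04. That call was kept in 3 of 9 fits that left out 1 array, and was lost with the replicate number as a block. Rag1 was also called there, at intensities of 20.1 or less. All its spleen values lay under 16 and were set to 16 before the test, so that call rests on this floor. Rag2 was high in 1 array alone, NKDxIL15tg bone marrow replicate 3.

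Values are intensities as deposited, a linear brightness with no detection call, so an absent gene cannot be told from a dim one, and levels are compared within a probe set only. Changes were tested with limma on log2 intensities after values below 16 were set to 16; a change was called at an adjusted p (Benjamini-Hochberg over all 45037 probe sets) under 0.05. Over the 14 member probe sets and 9 arrays, intensities ran between 10.8 and 392.6, and 4 probe sets had a value under 16. Only 3 of the 14, at Vpreb3, Igll1 (1420176_x_at) and Rag2, had a mean log2 intensity at or above the 40th percentile of all probe sets, an intensity of 47.7. The tests here used no such filter.

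NKDxIL15tg bone marrow replicate 3 stood apart from the other 8 arrays. Its median intensity was 64.9, against 56.6 to 59.1 in the others, and 2540 probe sets were over 2-fold above every other array in it, against 0 to 18 such probe sets in each other array. Member results and list counts are therefore given with and without it. Genes of NK cells were bright in all arrays: the 13 measured markers summed to 26440 to 29730 in NKDxIL15tg bone marrow, 31950 to 34690 in NKDxIL15tg spleen and 45400 to 47590 in IL15tg spleen, and none was below 91.2 in any array. Against IL15tg spleen, 6 of the 13 were called lower in bone marrow and 4 in NKDxIL15tg spleen, and 0 higher. Klrd1 read 494.2 to 1559, 607.3 to 1682 and 5792 to 6223 in the same groups. Nkg7, at 4287 to 5069, 4487 to 5275 and 5375 to 5591, and Eomes, at 2183 to 2752, 2279 to 2780 and 1787 to 2083, were not called. Granulocyte markers summed to 11350 to 28230, 2833 to 7347 and 570.5 to 876.5 in the same groups, the highest sum being that of bone marrow replicate 3.

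**Figure D1:**
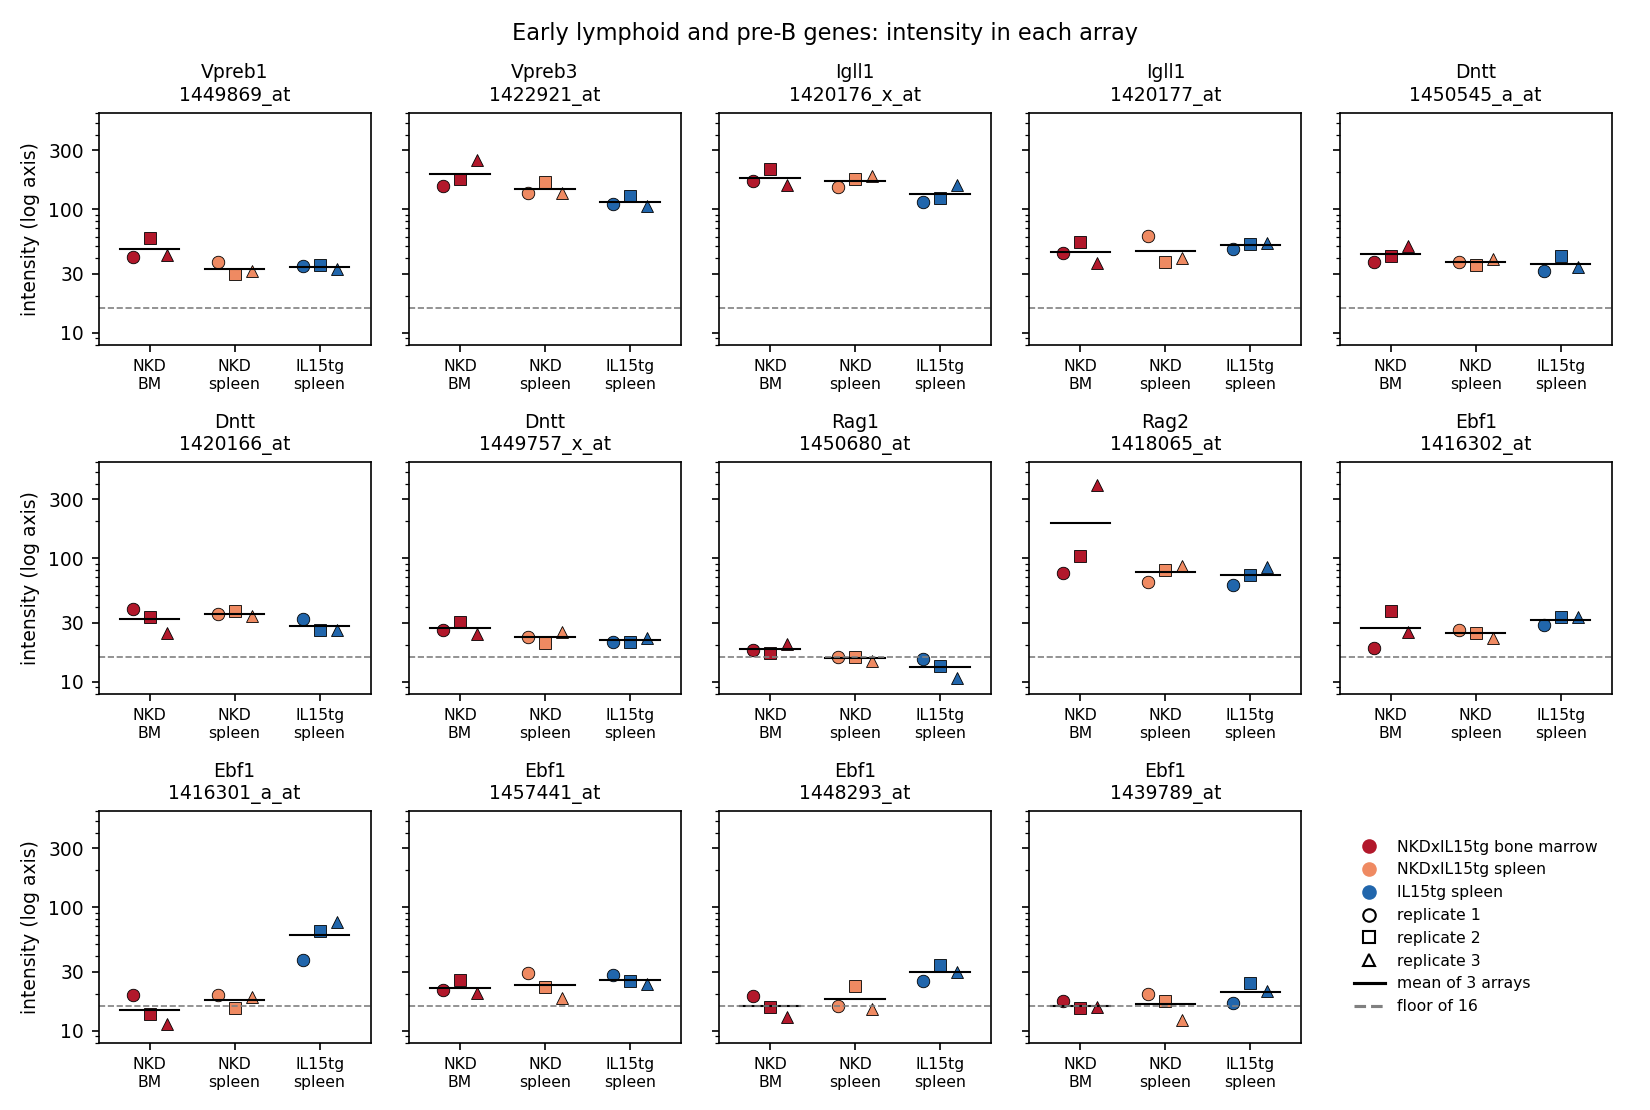
Intensity (log axis) of each of the 14 probe sets in the 9 arrays, with the NKDxIL15tg groups left of IL15tg spleen; symbols mark the replicate number, bars the mean of 3 arrays, and the dashed line the floor of 16. Rag2 in NKDxIL15tg bone marrow replicate 3, at 392.6, and Ebf1 1416301_a_at in IL15tg spleen, at 37.2 to 76.1, lie apart from the other arrays.

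The surrogate light chain genes come first. Vpreb1 (1449869_at), whose product is the variable-like chain of the surrogate light chain, read 41.0, 58.3 and 42.7 in NKDxIL15tg bone marrow, 37.3, 29.9 and 31.7 in NKDxIL15tg spleen, and 34.4, 35.4 and 33.1 in IL15tg spleen. All 3 bone marrow arrays lay above all 6 spleen arrays, and both spleen groups overlapped. The log2 change of NKDxIL15tg bone marrow against NKDxIL15tg spleen was 0.51 (95% interval 0.17 to 0.85), and it missed the threshold with limma (adjusted p = 0.367, unadjusted p = 0.00894). Against IL15tg spleen it was 0.45 (adjusted p = 0.0916). Without bone marrow replicate 3 these changes were 0.57 (adjusted p = 0.468) and 0.51 (adjusted p = 0.0964), so neither was called with or without that array. The spleen groups did not differ beyond their spread, with a log2 change of NKDxIL15tg over IL15tg of -0.06. A further probe set, annotated to Vpreb1 and its close copy Vpreb2 together, is no member; it read 86.8 to 96.5 in NKDxIL15tg bone marrow, 86.2 to 89.3 in NKDxIL15tg spleen and 76.9 to 88.1 in IL15tg spleen.

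Vpreb3 (1422921_at), a relative of the surrogate light chain genes whose product stays inside B-lineage cells, read 155.3, 174.4 and 251.4 in NKDxIL15tg bone marrow, 135.0, 166.3 and 136.3 in NKDxIL15tg spleen, and 109.6, 127.3 and 107.0 in IL15tg spleen. Bone marrow did not overlap IL15tg spleen, while its lowest array lay below the highest of NKDxIL15tg spleen, although each bone marrow array lay above the NKDxIL15tg spleen array of the same replicate number. Against IL15tg spleen it rose by 0.73 ± 0.19 (log2 change ± SE) in bone marrow with limma (adjusted p = 0.0438), and without bone marrow replicate 3 by 0.53 (adjusted p = 0.0493). This call was kept in 3 of 9 fits that left out 1 array. It was lost when any of 6 arrays was left out: bone marrow replicate 2 (adjusted p = 0.0765), NKDxIL15tg spleen replicates 1 (0.0659) and 3 (0.065), and IL15tg spleen replicates 1 (0.135), 2 (0.0818) and 3 (0.123), with log2 changes of 0.53 to 0.87 over all 9 fits. It was also lost with the replicate number as a block (adjusted p = 0.0645) and with a floor of 64 (0.0727). The NKDxIL15tg spleen level lay between the others: bone marrow exceeded it by 0.38 (interval -0.05 to 0.82, adjusted p = 0.495), and it exceeded IL15tg spleen by 0.35 (interval -0.09 to 0.78, adjusted p = 0.348).

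Igll1 encodes lambda 5, the constant-like partner of the Vpreb1 product. Its brighter probe set, 1420176_x_at, read 168.2, 211.8 and 157.3 in NKDxIL15tg bone marrow, 150.6, 174.2 and 186.2 in NKDxIL15tg spleen, and 113.8, 123.8 and 158.3 in IL15tg spleen. Its groups overlapped in every pair. Its log2 change was 0.07 in bone marrow against NKDxIL15tg spleen (interval -0.32 to 0.45, adjusted p = 0.898), and 0.44 in bone marrow against IL15tg spleen (interval 0.06 to 0.83, adjusted p = 0.132). The suffix x_at marks probe sets in which some probes can match other transcripts. The other, 1420177_at, read 43.8, 54.1 and 36.5 in bone marrow, 60.3, 37.5 and 40.2 in NKDxIL15tg spleen, and 48.1, 51.8 and 53.4 in IL15tg spleen, again overlapping throughout. It pointed the other way against IL15tg spleen, with a log2 change of -0.21 in bone marrow (adjusted p = 0.54), so the 2 probe sets of Igll1 did not give 1 direction. The annotation gives neither an accession.

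Igll1 and Vpreb1 lie near each other on chromosome 16, and as known targets of EBF1 their promoters are shown beside these levels. The sequences are from RefSeq on build GRCm38.p6, 250 bases before to 50 after the start site, 5′ to 3′ on the minus strand, at chr16:16863936-16864235 for Igll1 and chr16:16869206-16869505 for Vpreb1. Capitals mark matches to CCCNNGGG, the core of the EBF1 site, and to CANNTG, the E-box bound by E2A among others; both motifs read the same on either strand.
Igll1: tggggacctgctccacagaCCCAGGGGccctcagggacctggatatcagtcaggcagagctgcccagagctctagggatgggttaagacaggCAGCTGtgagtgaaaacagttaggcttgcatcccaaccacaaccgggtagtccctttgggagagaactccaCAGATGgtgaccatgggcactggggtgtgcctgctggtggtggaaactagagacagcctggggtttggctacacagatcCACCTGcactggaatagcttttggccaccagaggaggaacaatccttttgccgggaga
Vpreb1: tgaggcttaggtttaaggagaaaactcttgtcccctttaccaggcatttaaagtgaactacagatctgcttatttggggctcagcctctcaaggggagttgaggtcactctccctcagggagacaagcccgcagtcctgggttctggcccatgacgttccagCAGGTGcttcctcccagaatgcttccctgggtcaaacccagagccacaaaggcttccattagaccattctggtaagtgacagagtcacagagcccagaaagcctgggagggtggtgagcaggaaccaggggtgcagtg
The Igll1 window holds 1 match to CCCNNGGG, CCCAGGGG at position -231 from the start site, and 3 E-boxes at -158, -87 and -8. The Vpreb1 window holds no CCCNNGGG match and 1 E-box, at -88. Of all 32851 promoter windows of 300 bases, 13.7% hold CCCNNGGG and 72.3% hold CANNTG. Among the windows of the 7 genes, Igll1 was the only one with a CCCNNGGG match. These are matches of letters and do not show binding.

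The recombination genes follow. Dntt had 3 probe sets, and none was called in any of the 3 comparisons. Its brightest, 1450545_a_at, read 37.7, 41.5 and 50.2 in NKDxIL15tg bone marrow, 37.2, 35.6 and 39.3 in NKDxIL15tg spleen, and 31.7, 42.1 and 34.3 in IL15tg spleen. Bone marrow overlapped both spleen groups there, with log2 changes of 0.20 (interval -0.12 to 0.52) against NKDxIL15tg spleen and 0.26 (interval -0.06 to 0.58) against IL15tg spleen. The probe set 1420166_at read 38.6, 33.5 and 24.9 in bone marrow, 35.2, 37.4 and 34.1 in NKDxIL15tg spleen, and 32.1, 26.1 and 26.3 in IL15tg spleen, with bone marrow again overlapping both. In it NKDxIL15tg spleen lay above IL15tg spleen in all arrays, by 0.34 on the log2 scale (interval -0.03 to 0.72, adjusted p = 0.269), and the changes of bone marrow were -0.16 against NKDxIL15tg spleen (adjusted p = 0.682) and 0.18 against IL15tg spleen (adjusted p = 0.486). The dimmest, 1449757_x_at, read 26.4, 30.4 and 24.3 in bone marrow, 23.0, 20.5 and 25.2 in NKDxIL15tg spleen, and 21.0, 21.0 and 22.8 in IL15tg spleen. In it bone marrow lay above IL15tg spleen in all 3 arrays, by 0.32 on the log2 scale (adjusted p = 0.0834), and overlapped NKDxIL15tg spleen.

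Rag1 (1450680_at) encodes the recombinase subunit that cuts DNA. It read 18.0, 17.2 and 20.1 in NKDxIL15tg bone marrow, 15.9, 15.9 and 14.7 in NKDxIL15tg spleen, and 15.4, 13.4 and 10.8 in IL15tg spleen. Every bone marrow array lay above every spleen array, and all 6 spleen arrays lay under the floor of 16. Against IL15tg spleen the log2 change in bone marrow was 0.20 ± 0.05 (SE), called with limma (adjusted p = 0.0397), and 0.14 without bone marrow replicate 3 (adjusted p = 0.0189). The same 0.20 against NKDxIL15tg spleen was not called (adjusted p = 0.333). All 6 spleen values were raised to 16, so neither spleen group had any spread left in the test. The SE and adjusted p therefore rest on the floor and do not measure the spread of the spleen arrays. With a floor of 4 the change against IL15tg spleen was 0.50 and was not called (adjusted p = 0.0797), and with a floor of 64 it was 0. The call was also lost with the replicate number as a block (adjusted p = 0.0579), with arrays scaled to the 75th percentile (0.084) and without an intensity trend (0.089), and was kept in 2 of 7 such other settings. The call was kept in 2 of 9 fits that left out 1 array, those without bone marrow replicate 2 or 3, and was lost without bone marrow replicate 1 (adjusted p = 0.075), without NKDxIL15tg spleen replicate 1 (0.0634), 2 (0.057) or 3 (0.062), and without IL15tg spleen replicate 1 (0.114), 2 (0.107) or 3 (0.0975).

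Rag2 (1418065_at) encodes the partner of RAG1, which binds chromatin and is needed for cutting. It read 76.1, 103.9 and 392.6 in NKDxIL15tg bone marrow, 63.7, 79.7 and 87.1 in NKDxIL15tg spleen, and 60.5, 73.5 and 84.9 in IL15tg spleen. Bone marrow replicate 3 was 3.78-fold above the highest of the other arrays, while bone marrow replicate 1 lay inside the range of both spleen groups. The log2 change against NKDxIL15tg spleen was 0.94 (interval -0.34 to 2.21, adjusted p = 0.527), and 0.22 (interval -0.29 to 0.73, adjusted p = 0.808) without replicate 3. Against IL15tg spleen it was 1.01 (adjusted p = 0.275), and 0.30 (adjusted p = 0.425) without replicate 3. Of the 14 member probe sets, Rag2 alone was over 2-fold above all other arrays in that replicate, which is 7.14% of them, where 5.64% of all probe sets were. The spleen groups did not differ beyond their spread, with a log2 change of NKDxIL15tg over IL15tg of 0.08.

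Some other early progenitor genes also read high in bone marrow replicate 3, and others did not. Those named in this paragraph were chosen after their values were seen. Flt3, a growth factor receptor of early progenitors, read 112.4, 193.1 and 726.6 in NKDxIL15tg bone marrow, 117.0 to 176.6 in NKDxIL15tg spleen and 129.7 to 202.1 in IL15tg spleen. Cd93, a surface protein of immature B cells and stem cells, read 97.3, 138.6 and 313.6 in bone marrow, against 75.04 to 124.0 and 103.5 to 128.0 in the NKDxIL15tg and IL15tg spleen arrays. Erg, a progenitor transcription factor, read 42.8, 41.4 and 231.1 in bone marrow, and 37.5 to 47.5 over all 6 spleen arrays. In all 3 genes the high value was that of replicate 3, as it was for Rag2. Cd22, an inhibitory receptor of B cells, followed the same pattern at 272.4, 343.0 and 1898 in bone marrow, against 206.2 to 313.0 in NKDxIL15tg spleen and 250.3 to 339.4 in IL15tg spleen. Pax5, the B-lineage identity factor, did not, at 67.5, 64.3 and 89.6 in bone marrow, 48.8 to 57.9 in NKDxIL15tg spleen and 58.2 to 61.1 in IL15tg spleen. Neither did the stem and progenitor genes Kit, at 32.5, 39.2 and 29.1 in bone marrow, and Cd34, at 35.1, 26.8 and 26.6. Of whole marker lists, 2 of 8 stem and progenitor genes, 5 of 11 granulocyte genes, 2 of 7 monocyte and macrophage genes, 1 of 9 pro-B and pre-B genes other than the members, 1 of 12 early T cell genes and 1 of 9 erythroid genes were over 2-fold above all other arrays in replicate 3, and 0 of 10 mature B and plasma cell genes, 0 of 13 NK cell genes and 0 of 9 plasmacytoid dendritic cell genes were, beside 5.64% of all probe sets. Of the pathway lists, 2 of 15 early lymphoid genes, 1 of 16 B-lineage factors, 1 of 14 pre-B receptor genes and 0 of 10 end-joining genes were. Their part in the Rag2 value was not tested. No probe set of the neighbouring genes Rag1, Traf6 and Iftap, the last of which overlaps Rag2, was more than 1.30-fold above all other arrays in replicate 3; Traf6 (1435350_at) read 338.8 there and 223.0 to 274.6 in the others.

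**Figure D2:**
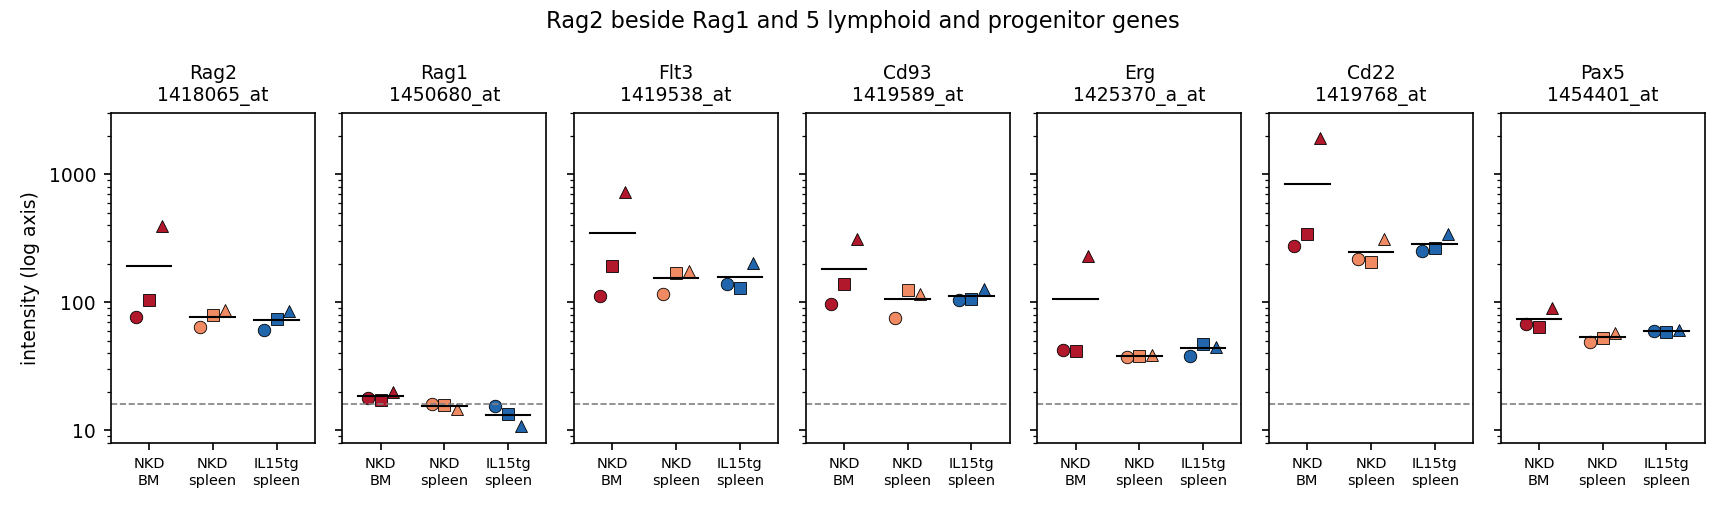
Intensity (log axis) of Rag2 beside Rag1 and 5 lymphoid and progenitor genes in the 9 arrays; symbols mark the replicate number, bars the mean of 3 arrays, and the dashed line the floor of 16. Bone marrow replicate 3 (triangle) is high at Rag2, Flt3, Cd93, Erg and Cd22, and Rag1 stays between 10.8 and 20.1 in all arrays.

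The B-lineage factor gene Ebf1 had 5 probe sets, and 2 of them were lower in both immature groups than in IL15tg spleen. The first, 1416301_a_at, read 19.4, 13.6 and 11.4 in NKDxIL15tg bone marrow, 19.3, 15.3 and 18.9 in NKDxIL15tg spleen, and 37.2, 64.02 and 76.1 in IL15tg spleen. The immature groups overlapped each other and neither reached IL15tg spleen. Against IL15tg spleen, Ebf1 fell by 1.73 ± 0.25 on the log2 scale (SE) in bone marrow (limma, adjusted p = 0.00486) and fell by 1.65 ± 0.25 in NKDxIL15tg spleen (adjusted p = 0.00855). Without bone marrow replicate 3 the adjusted p-values were 0.0169 and 0.0141, and both calls were kept in 9 of 9 fits that left out 1 array. Bone marrow against NKDxIL15tg spleen differed by -0.08 (interval -0.65 to 0.49, adjusted p = 0.924). Several immature arrays lay under the floor of 16, so these changes are bounded by it and their SE understate the spread of those arrays. Bone marrow replicates 2 and 3 were both set to 16, so leaving out either gave the same change of -1.68 against IL15tg spleen. With a floor of 4 the changes were -1.97 in bone marrow and -1.67 in NKDxIL15tg spleen, and with a floor of 64 both were -0.08 and not called.

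The other called probe set, 1448293_at, read 19.3, 15.7 and 12.8 in NKDxIL15tg bone marrow, 15.7, 23.1 and 15.0 in NKDxIL15tg spleen, and 25.4, 34.1 and 29.8 in IL15tg spleen. IL15tg spleen lay above both immature groups in every array. The log2 changes against it were -0.79 ± 0.17 in bone marrow (adjusted p = 0.0232) and -0.71 ± 0.17 in NKDxIL15tg spleen (adjusted p = 0.047), and without bone marrow replicate 3 neither was called (adjusted p = 0.0592 and 0.0562). The bone marrow call was also lost without bone marrow replicate 2 (0.0698) or IL15tg spleen replicate 2 (0.0794) or 3 (0.07). The NKDxIL15tg spleen call was kept in 1 of 9 such fits, that without NKDxIL15tg spleen replicate 2, with adjusted p-values of 0.0197 to 0.145 over all 9. Here too several immature values lay under the floor of 16, so the changes and their SE rest partly on it. With a floor of 4 the bone marrow change was -0.91 (limma, adjusted p = 0.019). That of NKDxIL15tg spleen was then -0.75 and not called (adjusted p = 0.06). With a floor of 64 both changes were 0 and not called. The remaining 3 probe sets were not called in any comparison. Of these, 1416302_at read 18.9, 37.6 and 25.4 in bone marrow, 26.5, 24.9 and 22.5 in NKDxIL15tg spleen, and 28.7, 33.7 and 33.3 in IL15tg spleen, where NKDxIL15tg spleen lay below IL15tg spleen in all arrays. The probe set 1457441_at read 18.3 to 29.6 and 1439789_at read 12.2 to 24.5 over the 9 arrays, with overlap between all groups. All 5 probe sets had a mean log2 change below 0 against IL15tg spleen in both immature groups, with values of -0.16 to -1.73.

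Several genes of B cells were, like Ebf1 1416301_a_at, lower in both immature groups than in IL15tg spleen. The genes named in this paragraph were chosen after their values were seen. Ms4a1, which encodes the B cell surface protein CD20, read 20.4, 16.4 and 18.2 in NKDxIL15tg bone marrow, 148.0, 161.7 and 114.5 in NKDxIL15tg spleen, and 292.1, 475.3 and 556.9 in IL15tg spleen. Cd79b, a signalling chain of the B cell receptor, read 20.4 to 24.6 in bone marrow, 54.5 to 68.3 in NKDxIL15tg spleen and 152.7 to 356.3 in IL15tg spleen. Both had their lowest levels in bone marrow and their highest in IL15tg spleen, with no overlap between groups, whereas Ebf1 1416301_a_at overlapped between the immature groups. Bone marrow against NKDxIL15tg spleen gave log2 changes of -2.94 for Ms4a1 (adjusted p = 0.0506) and -1.37 for Cd79b (adjusted p = 0.298). Cd79a, the other signalling chain, had its high values in IL15tg spleen alone, at 87.0 to 164.1, against 38.9 to 43.8 in bone marrow and 39.2 to 50.8 in NKDxIL15tg spleen. Pou2af1, a B cell coactivator, read 11.2 to 11.7 in bone marrow, 70.0 to 82.8 in NKDxIL15tg spleen and 171.9 to 360.1 in IL15tg spleen. Within IL15tg spleen, replicate 1 was the lowest of the 3 arrays for Ebf1 1416301_a_at and for each of these 4 genes. The 10 measured markers of mature B and plasma cells summed to 2092 to 2297 in bone marrow, 3087 to 3296 in NKDxIL15tg spleen and 3370 to 4198 in IL15tg spleen. The largest parts of the bone marrow sums were Xbp1, at 1042 to 1526, and Cd37, at 490.9 to 993.4. Against IL15tg spleen, 7 of the 10 were lower in bone marrow and 6 in NKDxIL15tg spleen (7 and 5 without bone marrow replicate 3). None was higher. Of all genes, 5.66% and 3.26% were lower in the same comparisons. Other genes of that list did not follow Ebf1 in both immature groups. Jchain, the joining chain of secreted antibodies, read 17.7 to 35.9 in bone marrow, 434.5 to 503.4 in NKDxIL15tg spleen and 160.7 to 486.3 in IL15tg spleen. Against IL15tg spleen Jchain was lower in bone marrow (limma, log2 change -3.62, adjusted p = 0.00223) and was not called in NKDxIL15tg spleen (0.76, adjusted p = 0.36). Cd37, Xbp1 and Sdc1 were not called against IL15tg spleen in either immature group. The lowest value of any of the 10 was 12.9. Their part in the Ebf1 difference was not tested.

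**Figure D3:**
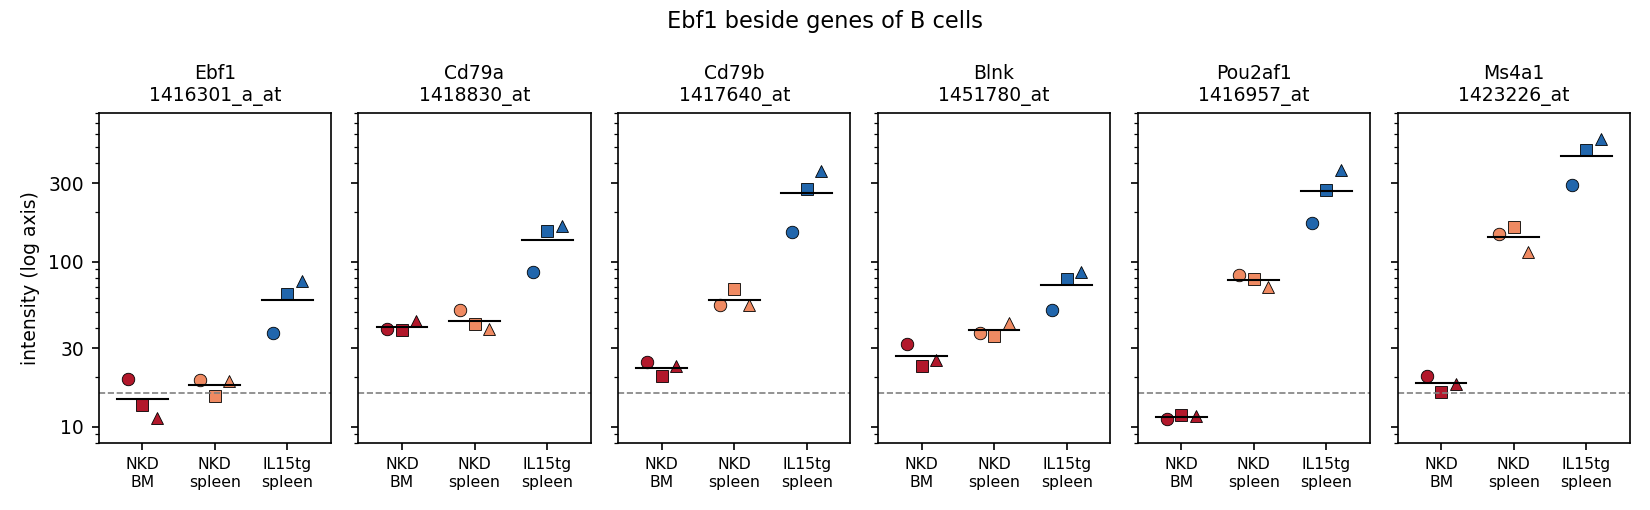
Intensity (log axis) of Ebf1 1416301_a_at beside 5 genes of B cells in the 9 arrays; symbols mark the replicate number, bars the mean of 3 arrays, and the dashed line the floor of 16. All 6 genes have their 3 highest values in IL15tg spleen. Ms4a1, Cd79b, Blnk and Pou2af1 are higher in NKDxIL15tg spleen than in NKDxIL15tg bone marrow in every array.

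Counted over all members, 0 of 14 probe sets were called with limma in NKDxIL15tg bone marrow against NKDxIL15tg spleen, where 0.00444% of all probe sets were called. At an unadjusted p under 0.05 there were 3, at Vpreb1, Rag1 and Dntt 1449757_x_at, or 21.4% against a background of 10.5%. Rag1 was among them with its spleen arrays all set to the floor. Without bone marrow replicate 3, 0 of 14 were called, against 0% of all probe sets, and 3 had an unadjusted p under 0.05, against a background of 8.44%. Few probe sets of any kind passed here: 2 of 45037, 1 of them Matn2, a matrix protein gene, and the other without a single gene symbol. The members' median log2 change was 0.08, against 0.03 over all probe sets.

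In NKDxIL15tg bone marrow against IL15tg spleen, 4 of 14 were called, or 28.6% against a background of 12.4%: Vpreb3 and Rag1 were higher and 2 probe sets of Ebf1 were lower. The Rag1 call rests on the floor, which removed the spread of its spleen arrays. Without bone marrow replicate 3 there were 3, against a background of 11.7%, the second Ebf1 probe set being lost. The members' median log2 change was 0.19, against 0.06 over all probe sets. In NKDxIL15tg spleen against IL15tg spleen, 2 of 14 were called, both Ebf1 and both lower, against a background of 7.74%. Without bone marrow replicate 3 there was 1, against a background of 9.47%. The median was -0.03, against -0.01 over all probe sets. These comparisons share arrays, so their calls are not independent of each other.

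**Figure D4:**
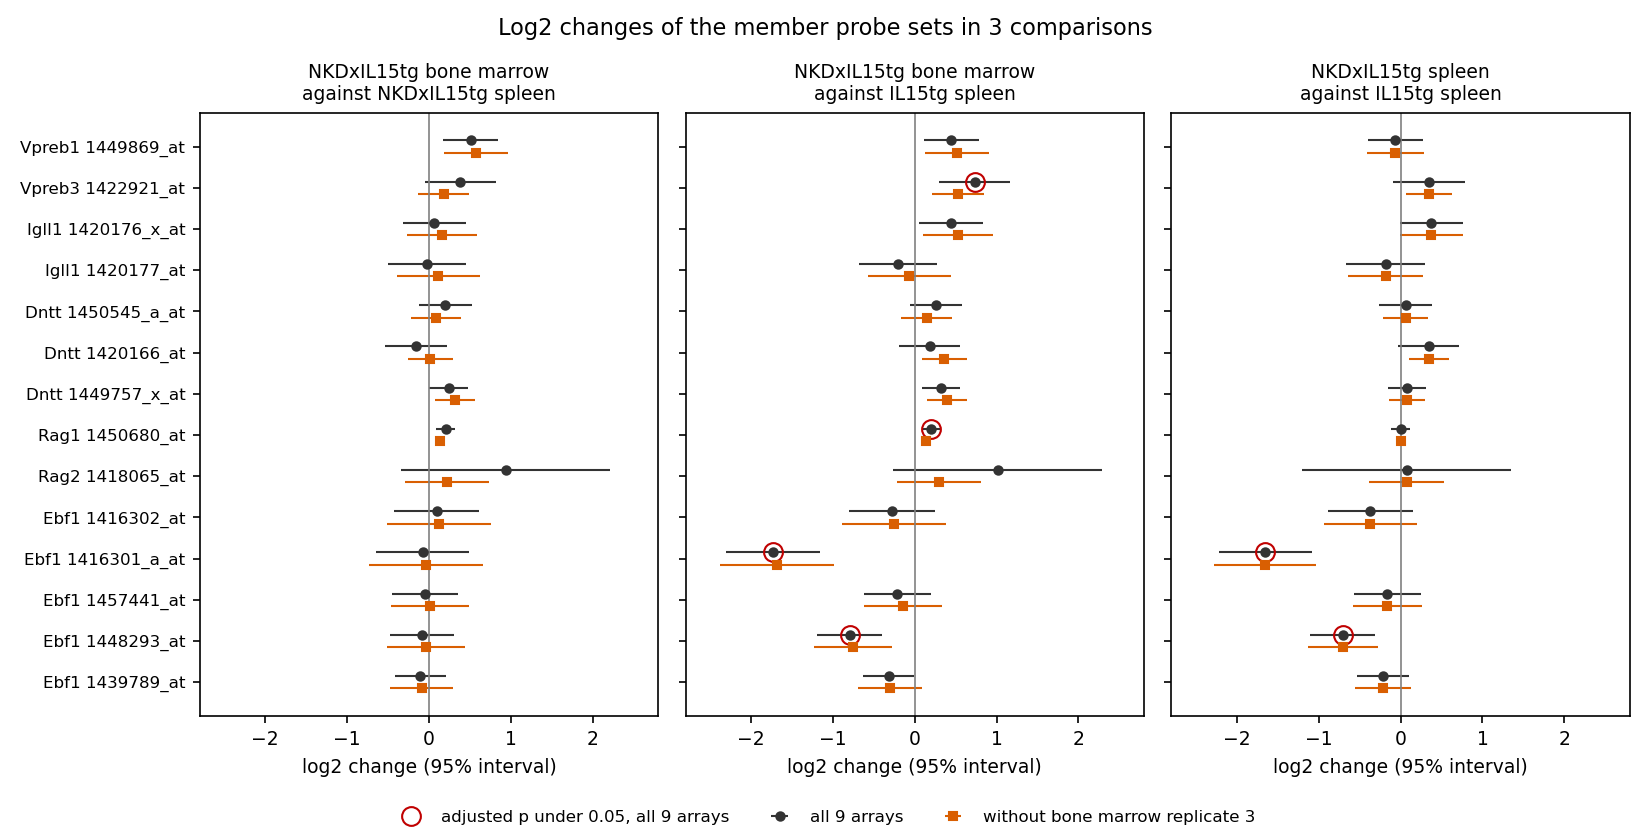
Log2 change of each member probe set with its 95% interval in the 3 comparisons, with all 9 arrays (dark) and without NKDxIL15tg bone marrow replicate 3 (orange); red circles mark an adjusted p under 0.05 with all arrays. The interval of Rag2 narrows to -0.29 to 0.73 without that replicate in the left panel, and Ebf1 1416301_a_at lies furthest from 0 in the other panels.

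Of the wider pathway, each gene taken by its brightest probe set, none of 4 lists had a member called between NKDxIL15tg bone marrow and NKDxIL15tg spleen with limma, against 0% of all 18193 genes called higher or lower. Against IL15tg spleen, 7.58% of genes were called higher and 5.66% lower in NKDxIL15tg bone marrow, and 4.84% higher and 3.26% lower in NKDxIL15tg spleen. Of 14 measured pre-B receptor partners and signalling genes, 0 rose and 4 fell in bone marrow against IL15tg spleen, and 0 rose and 3 fell in NKDxIL15tg spleen (3 and 2 fell without bone marrow replicate 3). The brightest 2 were Ighm, the heavy chain of the receptor, at 610.8 to 1039 in bone marrow, 1468 to 2703 in NKDxIL15tg spleen and 1094 to 1771 in IL15tg spleen, and Pik3ap1, an adaptor of PI3 kinase, at 543.9 to 705.3, 642.1 to 939.4 and 813.7 to 905.9. Neither was called in any comparison, and both had their lowest median in bone marrow.

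Of 16 B-lineage transcription factor genes, 2 rose and 4 fell in bone marrow against IL15tg spleen, and 1 rose and 4 fell in NKDxIL15tg spleen; without bone marrow replicate 3 the only change was that 5 fell in NKDxIL15tg spleen. Ikzf3, the Aiolos factor of lymphocytes, read 1967 to 2461 in bone marrow, 1979 to 2500 in NKDxIL15tg spleen and 1283 to 1363 in IL15tg spleen, and rose by 0.71 (adjusted p = 0.00779) and 0.72 (adjusted p = 0.0105) in the immature groups. Ikzf1, the Ikaros factor needed for all lymphocytes, was not called, at 1554 to 2246, 1867 to 2148 and 2035 to 2299 in the same groups. Of 15 early lymphoid surface and progenitor genes, 2 rose and 5 fell in bone marrow against IL15tg spleen, and 1 rose and 3 fell in NKDxIL15tg spleen; without bone marrow replicate 3, 2 rose and 4 fell in bone marrow, and 2 rose and 3 fell in NKDxIL15tg spleen. The brightest 2, Tspan13, a tetraspanin membrane protein, and Crlf2, the receptor of the cytokine TSLP, were not called. Tspan13 read 1441 to 1499 in bone marrow, 1599 to 1900 in NKDxIL15tg spleen and 1483 to 1687 in IL15tg spleen, and Crlf2 read 812.4 to 957.2, 695.6 to 1071 and 1101 to 1237. Of 10 measured end-joining genes of V(D)J recombination, 2 rose and 0 fell in bone marrow against IL15tg spleen, and 1 rose and 0 fell in NKDxIL15tg spleen, as they did without bone marrow replicate 3 (2 and 1 rose). Hmgb2, a chromatin protein that helps the RAG proteins bind DNA, read 1959 to 2016 in bone marrow, 1617 to 2316 in NKDxIL15tg spleen and 1206 to 1587 in IL15tg spleen, and missed the threshold in bone marrow against IL15tg spleen (log2 change 0.54, adjusted p = 0.0518). Atm, a kinase of the response to DNA breaks, was not called and read 231.3 to 302.2 over all arrays. The called genes of this list, named after their values were seen, were Xrcc5 and Xrcc6, the Ku subunits that bind broken DNA ends: in bone marrow against IL15tg spleen they rose by 0.72 (adjusted p = 0.0437) and 0.47 (adjusted p = 0.0258), and Xrcc5 rose by 0.88 in NKDxIL15tg spleen (adjusted p = 0.0314). Xrcc5 was lowest of the bone marrow arrays in replicate 3, at 146.1, against 219.3 and 240.9 in replicates 1 and 2.

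The genes whose log2 intensity was most like the mean of the 7 member genes over the 9 arrays were Kcng4 (Pearson r = 0.981), Dgat2 (0.978), Mesp2 (0.977), Adad1 (0.972) and Fcnb (0.972), as a description over arrays that share groups. Each gene was taken by its brightest probe set, so Ebf1 entered as 1416302_at, which was not called. Kcng4 moved little, at 58.2, 66.8 and 68.6 in NKDxIL15tg bone marrow, 56.0 to 58.3 in NKDxIL15tg spleen and 52.4 to 57.7 in IL15tg spleen. Dgat2, an enzyme of fat synthesis, read 74.1, 116.6 and 197.1 in NKDxIL15tg bone marrow, 54.6 to 64.5 in NKDxIL15tg spleen and 47.6 to 66.3 in IL15tg spleen. Fcnb, a ficolin of granulocytes, read 82.9, 108.3 and 176.9, then 67.2 to 72.9 and 54.3 to 73.3, so that both had their highest value in bone marrow replicate 3. Over the 8 arrays without that replicate, Kcng4 (0.992) was again the most like, followed by Cyp2j11 (0.974), Pih1d1 (0.96), Gmppb (0.958) and Armc6 (0.957); Kcng4 was the 1 gene in both lists.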

How the data were processed

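RNA of sorted NK cells was measured on 9 Affymetrix mouse arrays in 3 groups of 3, labelled from 150 ng RNA in 2 amplification cycles, per the labels' protocols. The authors deposited 1 table of linear intensity values; the sources used here do not say how probes were summarised or arrays scaled, and no detection call was used. Of its 45101 probe sets, 64 control probe sets were left out. A single symbol was given to 34945 probe sets by the platform annotation, several to 932.

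Deposited intensities were raised to a floor of 16, taken to log2 and fitted in limma 3.58.1 (R 4.3.3) with 3 group means and an intensity trend, with no filter on level. Tests were 2-sided, with Benjamini-Hochberg adjustment over 45037 probe sets at 0.05. The fit was checked on simulated data. With 3 arrays a group, precision is limited, and the median SE of a log2 change was 0.14. The p-values measure the spread between these arrays, except where the floor removed that spread, as at Rag1 in the spleen groups. The floor also narrowed it in the immature groups at Ebf1 1416301_a_at and 1448293_at.

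The members, gene lists and tests were chosen with earlier results of these data known. All member probe sets are named. Of each of the 4 pathway lists, members called between NKDxIL15tg bone marrow and NKDxIL15tg spleen were to be named, and, as none was, the brightest 2; genes named beyond this are marked as chosen after their values were seen. The 9 marker lists are described by counts.

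Arrays of NKDxIL15tg bone marrow and NKDxIL15tg spleen with the same replicate number deviated together (correlations of 0.319, 0.224 and 0.194 over probe sets). For NKDxIL15tg spleen and IL15tg spleen these correlations were 0.082, 0.095 and 0.084, and for NKDxIL15tg bone marrow and IL15tg spleen 0.143, 0.022 and 0.201. Between different replicate numbers, correlations of NKDxIL15tg bone marrow and NKDxIL15tg spleen ran from -0.281 to -0.021. With IL15tg spleen they ran from -0.284 to 0.189 for NKDxIL15tg bone marrow and from -0.233 to 0.128 for NKDxIL15tg spleen. The titles do not say whether the numbers pair the arrays, so a pairing is read from these correlations alone. The tests printed have no block. The replicate block alternative fits the replicate number over all 9 arrays, so it covers IL15tg spleen too, whose mice are of another genotype. Member calls that it loses are given with the other alternatives. Alternatives were a filter at the 40th percentile, quantile normalization, scaling to the 75th percentile, floors of 64 and 4, no trend, a replicate block, array weights, each gene by its brightest probe set, and leaving out each array.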

Additional observations from a re-analysis of the deposited data

How the results depend on the processing

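No member probe set was called in NKDxIL15tg bone marrow against NKDxIL15tg spleen under any alternative (0 in each), and no called member changed its direction; of the single-probe-set values, 638 kept their side of the threshold, 41 lost a call and 2 gained one. In NKDxIL15tg bone marrow against IL15tg spleen, the 4 called members became 1 with the filter at the 40th percentile, which leaves 3 members tested, 0 with a floor of 64, 2 with the replicate block and 2 of 7 genes by their brightest probe set, where Ebf1 is taken by 1416302_at. Leaving out 1 array gave 1 to 3 members. In NKDxIL15tg spleen against IL15tg spleen, the 2 called members became 0 with the filter, 0 with a floor of 64, 0 by the brightest probe set, and 1 with quantile normalization, scaling to the 75th percentile, a floor of 4, no trend or the replicate block; leaving out 1 array gave 1 to 2. With the replicate block Rag1 (adjusted p = 0.0579) and Vpreb3 (adjusted p = 0.0645) lost their calls against IL15tg spleen, Ebf1 1448293_at lost its call in NKDxIL15tg spleen (adjusted p = 0.0648), and no other member call changed. The gained calls were Dntt 1449757_x_at in bone marrow against IL15tg spleen with array weights (log2 change 0.37, adjusted p = 0.0263) and Ebf1 1439789_at there without IL15tg spleen replicate 1 (-0.47, adjusted p = 0.0485). Array weights gave bone marrow replicate 3 a weight of 0.23, against 0.813 to 1.77 for the others.

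Over all probe sets, the 2 called in NKDxIL15tg bone marrow against NKDxIL15tg spleen became 14 with the filter, 5 with quantile normalization, 1 scaled to the 75th percentile, 4 with a floor of 64, 15 with a floor of 4, 0 with the replicate block and 1 with array weights, and 0 to 14 without 1 array. In NKDxIL15tg bone marrow against IL15tg spleen, 5598 became 4484 scaled to the 75th percentile, 3541 with a floor of 64 and 7884 with array weights, and 2609 to 5972 without 1 array. In NKDxIL15tg spleen against IL15tg spleen, 3484 became 2217 scaled to the 75th percentile, 2175 with a floor of 64 and 5227 with array weights, and 1391 to 4263 without 1 array. The causes were not tested. Most members lie near the floor, so signal over background limits what could be seen.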

Other observations

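The other marker lists gave these counts against IL15tg spleen, where 7.58% of all genes rose and 5.66% fell in NKDxIL15tg bone marrow, and 4.84% rose and 3.26% fell in NKDxIL15tg spleen. Granulocyte genes rose in 10 of 11 in NKDxIL15tg bone marrow and in 5 of 11 in NKDxIL15tg spleen (11 and 6 without bone marrow replicate 3), and erythroid genes in 5 and 4 of 9 (2 and 4 without it). Of monocyte and macrophage genes 2 and 1 of 7 rose. NK cell genes fell in 6 and 4 of 13, and plasmacytoid dendritic cell genes in 4 and 4 of 9. Of stem and progenitor genes 1 of 8 fell in each group. The counts of these last 4 lists were the same without bone marrow replicate 3, except that 1 plasmacytoid dendritic cell gene then also rose in bone marrow. Of 9 measured pro-B and pre-B genes other than the members, 3 fell in each immature group, namely Cd79a, Blnk and Pou2af1, and none rose; without bone marrow replicate 3, 3 and 2 fell. Of 12 early T cell and thymocyte genes none was called. Between NKDxIL15tg bone marrow and NKDxIL15tg spleen no gene of the 9 lists was called with limma.

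Kit, the stem cell factor receptor, was the gene called in the stem and progenitor list: it read 32.5, 39.2 and 29.1 in NKDxIL15tg bone marrow, 36.0, 28.5 and 27.4 in NKDxIL15tg spleen, and 131.6, 152.3 and 133.2 in IL15tg spleen. Il7r, the interleukin 7 receptor chain of early lymphoid cells, read 34.2 to 39.4 in NKDxIL15tg bone marrow, 41.5 to 76.0 in NKDxIL15tg spleen and 466.7 to 529.6 in IL15tg spleen. Sox4, a transcription factor of lymphoid progenitors, ran the other way: against IL15tg spleen it rose by 4.45 on the log2 scale in NKDxIL15tg bone marrow (limma, adjusted p = 0.00149) and by 4.55 in NKDxIL15tg spleen (adjusted p = 0.00176). These genes were chosen after their values were seen.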
